A study of Mus musculus with 7 samples.

Results

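The comparison is between ovalbumin-specific CD4 T cells activated in mice that carry ovalbumin as a self-antigen and the same kind of cells activated in wild-type mice. It uses 5 of the series' 7 arrays, chosen by their titles: the 3 arrays of CD44 high cells from an sOVA host and the 2 arrays of CD44 high cells from a host described as wild type (WT host). The 2 remaining arrays, of naive cells, entered the fit for the estimate of spread only and are given beside some results as a level. All cells were CD4 T cells of Balb/c mice aged 6 to 8 weeks with the DO11.10 T cell receptor, a transgenic receptor that recognises an ovalbumin peptide. Donor cells for both hosts came from DO11.10 mice without Rag2 (Rag2-/-), were pooled from lymph nodes and spleen, and were injected intravenously. The host was a WT Balb/c or an sOVA mouse, and 24 h after transfer it received bone marrow-derived dendritic cells activated with LPS and loaded with ovalbumin peptide. CD44 high DO11.10 cells were sorted from pooled spleen and lymph nodes 5 days after transfer. Naive cells were CD25 negative and CD44 low and came from DO11.10 mice with intact Rag2 (Rag2+/+). Titles describe the WT host as OVA immunized and the sOVA host as sOVA immunized, whereas the protocol gives one immunization for both. Any difference in immunization therefore cannot be told apart from the host. The labels do not state the promoter or the tissue that supplies ovalbumin in sOVA mice. By its title the series concerns activation in vitro, whereas the protocol describes transfer into mice. The labels do not say whether replicates were separate pools of mice. The p-values therefore measure only how far these samples differ among themselves, which may be technical variation. In sorted bulk RNA, fewer cells of one state and less RNA per cell cannot be told apart.

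MicroRNAs (miRNAs) are short RNAs that pair with messenger RNAs, mainly through bases 2 to 8 from their 5′ end (the seed), and lower the output of those messages. In CD4 T cells several of them change with activation: miR-155 is needed for effector responses, miR-146a restrains signalling through NF-kB, and miR-181a sets the sensitivity of the T cell receptor by limiting phosphatases. A T cell that meets its antigen as a self-antigen can be activated and yet lose function or turn regulatory, which is the general question such hosts are used to ask.

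The miRNAs below are part of those described in the results and are shown so that family members and near-identical targets can be told apart. With all arrays, 0 of 342 targets passed the test between the hosts (adjusted p under 0.05, limma). Those below passed when the array labelled sOVA host replicate 3 was left out, except miR-500-3p and miR-301a-3p. For these the adjusted p was then 0.0532 and 0.101 (limma). Sequences are mature mouse miRNAs from RefSeq (GRCm38.p6), written 5′ to 3′, with the seed in capitals. The first set was higher on sOVA host replicates 1 and 2 than in the WT host.
miR-155-5p: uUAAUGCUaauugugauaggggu
miR-146a-5p: uGAGAACUgaauuccauggguu
miR-146b-5p: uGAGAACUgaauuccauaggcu
miR-181a-5p: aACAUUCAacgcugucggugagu
miR-181b-5p: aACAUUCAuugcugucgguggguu
miR-125a-5p: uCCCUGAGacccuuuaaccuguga
miR-23a-3p: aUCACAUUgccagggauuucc
miR-27a-3p: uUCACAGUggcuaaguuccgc
miR-195a-5p: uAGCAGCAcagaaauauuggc
miR-29c-3p: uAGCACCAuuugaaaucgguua

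The second set was lower on those arrays than in the WT host. It includes miR-27b-3p, which shares its seed with miR-27a-3p of the first set.
miR-150-3p: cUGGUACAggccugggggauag
miR-139-5p: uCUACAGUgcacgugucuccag
miR-7a-5p: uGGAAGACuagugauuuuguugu
miR-27b-3p: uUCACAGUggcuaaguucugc
miR-28a-5p: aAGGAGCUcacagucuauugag
miR-188-5p: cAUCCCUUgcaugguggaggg
miR-362-5p: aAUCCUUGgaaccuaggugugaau
miR-500-3p: aAUGCACCugggcaaggguuca
miR-501-3p: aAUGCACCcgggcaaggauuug
miR-130b-3p: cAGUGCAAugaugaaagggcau
miR-301a-3p: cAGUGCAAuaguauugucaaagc

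Counted from the 5′ end, miR-27a-3p and miR-27b-3p differ by C19U, miR-146a-5p and miR-146b-5p by G18A and U21C, and miR-500-3p and miR-501-3p by U9C, G18A, C21U and A22G. Probes for such close targets can share signal, so near-identical targets are not independent measurements.

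Each array held 7 spots for each of 1874 probes. A probe was called detected where at least 50% of its spots were well above background. Per array, the share of spots well above background was 16.5% to 25.4%. None was saturated. Precision is limited by the small number of arrays. Levels are log2 signal relative to the array's own 75th percentile, taken over 253 probes that every array detected, so they describe a miRNA relative to the other probes of its array. They are not comparable between probes. Of 1753 targets, 342 were detected on every array of at least 1 of the 3 groups and were tested. Of these, 166 matched a mature mouse miRNA, 16 lay on a miRNA hairpin only, 73 were within 3 edits of a mouse miRNA, and 87 had no match. Of a list of 10 targets from 5 miRNAs typical of T cells, 7 to 9 were detected on each host array. The 5p side of the blood-cell miRNA miR-142 was detected on all of these arrays. Detection of these miRNAs does not by itself identify CD4 T cells. That list also holds miR-181a, miR-181b and miR-150-3p, whose values follow.

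The array labelled sOVA host replicate 3 stood apart from the other arrays of its group. Over the 342 targets its levels correlated with sOVA host replicates 1 and 2 at r = 0.909 and 0.878, whereas those correlated with each other at r = 0.973. With WT host replicate 2 the correlation was r = 0.969, the same as between the 2 WT host arrays (r = 0.969). These correlations are across targets of single arrays and are descriptions. The 75th percentile of signal was 2729 on sOVA host replicate 3 and 3591 on WT host replicate 2, against 9281 to 15743 on the other 5 arrays, so these were the dimmest arrays. Both lay in row 2 of the slide with 1 naive array. WT host replicate 1 and sOVA host replicates 1 and 2 lay in row 1 with the other naive array. The slide and the scan time were shared by all 7 arrays.

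The authors' deposited value table showed another profile for this sample. Over the brightest 25% of its rows, the column of sOVA host replicate 3 correlated with replicates 1 and 2 at r = 0.991 and 0.990 and with WT host replicate 2 at r = 0.950. Over the brightest 25% of probes in the scanner files the corresponding values were 0.893, 0.835 and 0.948. Replicates 1 and 2 correlated with each other at r = 0.970 in the value table and at r = 0.960 in the scanner files. In the value table each thus lay closer to the replicate 3 column than to the other. For the 15 pairs of arrays without sOVA host replicate 3, the 2 sources differed by at most 0.0227 in r. For the 6 pairs with it they differed by 0.0019 to 0.169. The scanner file and the column that carry this label thus do not hold the same profile, and which of them belongs to the sample was not tested. Results below are therefore given with and without the array labelled sOVA host replicate 3, and with it no target passed the test between the hosts.

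**Figure D1:**
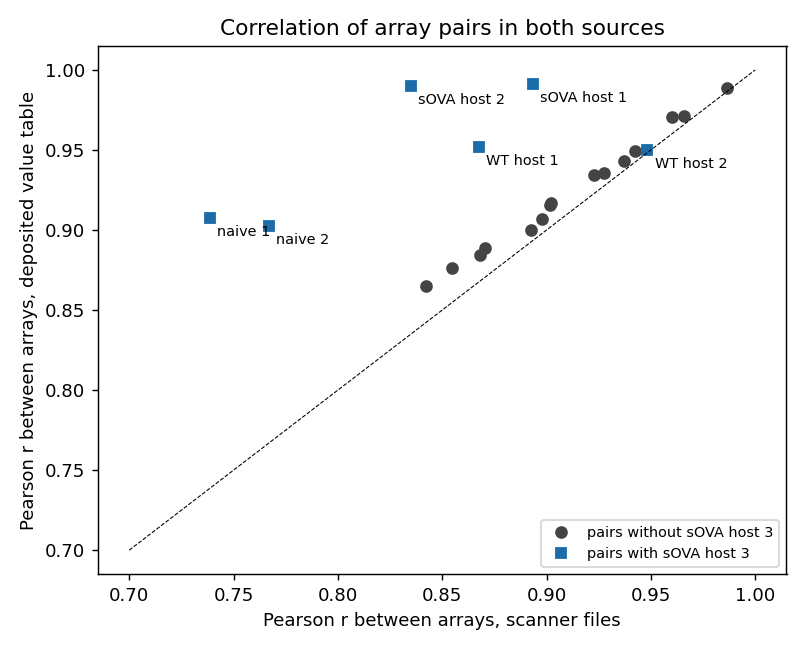
Pearson correlation between arrays over the brightest 25% of probes of the scanner files (x axis) and of rows of the deposited value table (y axis), 1 point per pair of arrays. The 15 pairs without sOVA host replicate 3 lie close to the dashed line of equality, while 5 of the 6 pairs with it lie well above that line and the pair with WT host replicate 2 lies on it. The partner array is written beside each of the 6.

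Markers of other cells also differed on that array. The erythroid miRNA miR-451a stood at -3.33 and -1.80 in the WT host, at -1.09 and -4.12 on sOVA host replicates 1 and 2, and at 0.94 on replicate 3. The summed linear level of the erythroid list was 1.93 times the 75th percentile on replicate 3 and 0.0622 to 0.479 on the other 4 host arrays, and all 3 targets of miR-144 on that list were not well above background anywhere. Of 7 targets on the muscle list, 2 were detected on replicate 3 and 0 on every other array, both of them targets of miR-133b-3p. Of 13 epithelial targets, 0 were detected on replicate 3 and on WT host replicate 2, against 3 to 4 on the other host arrays. One of them, miR-205-5p, a marker of squamous epithelium, was detected on sOVA host replicates 1 and 2 (-4.87 and -4.08) and on no other array, being at -9.39 and -8.40 without detection in the WT host and at -6.49 on replicate 3. It was not in the test, since no group detected it on every array. None of the 10 endothelial and stromal or the 4 pancreatic targets was detected on a host array. The epithelial list summed to 0.0611 and 0.0609 in the WT host and 0.127, 0.124 and 0.0856 in the sOVA host. The muscle list summed to 0.134 on replicate 3 and to at most 0.0393 elsewhere. These sums include targets below background, whose floor differs between arrays. miR-200a-5p, detected on no array, read -9.39 and -8.41 in the WT host and -8.12, -9.36 and -7.49 in the sOVA host. On sOVA host replicates 1 and 2 the epithelial sum also holds miR-205-5p. The sums therefore do not show a difference between the hosts across the epithelial list. The myeloid miRNA miR-223-3p was detected on 1 of 2 arrays of the WT host and 2 of 3 of the sOVA host, with a difference of 0.36 ± 0.54 (SE). The part of these cells in any result below was not tested.

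With all arrays, no target passed the test for a difference between the hosts. Of 342 targets, 0 had an adjusted p under 0.05 in limma (the smallest was 0.331), and 41 had an unadjusted p under 0.05, which is 12% of those tested, 10 of them higher and 31 lower in the sOVA host. The arrays of the 2 groups did not overlap for 80 targets (23.4%), of which 19 were higher (5.56%) and 61 lower (17.8%) in the sOVA host. A single target cannot reach significance by permutation here, since 2 arrays against 3 allow a two-sided exact p of 0.2 at best. The median difference over all targets was -0.15 with a median standard error of 0.43.

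Without the array labelled sOVA host replicate 3, 65 targets passed (adjusted p under 0.05, limma), 19% of those tested, with 38 higher (11.11%) and 27 lower (7.89%). Of the 65, 35 were well above background on all 5 host arrays and 30 had a miRNA name, 17 higher and 13 lower. When replicate 3 was set beside the others, its level kept the groups apart for 29 of the 65 and made them overlap for 36. Within row 2, where replicate 3 is set against WT host replicate 2, 31 of the 65 differed in the same direction and 34 in the opposite one. Over all 342 targets, the differences within rows 1 and 2 had the same direction for 185. The floor of replicate 3 was the higher in row 2: miR-200a-5p, detected on neither array, read -7.49 there and -8.41 on WT host replicate 2. Targets below background can therefore count as higher in row 2. The median standard error was 0.29 without replicate 3. The split of higher and lower moved with the scaling: without replicate 3 it was 40 higher and 11 lower when arrays were scaled to their median over detected probes, and 26 higher and 29 lower after normexp background correction. With the 75th percentile over all probes, 25 passed, 17 of them higher. Of the 30 named miRNAs, 10 passed under all 4 other scalings: miR-155-5p, miR-146a-5p, miR-146b-5p, miR-181a-5p, miR-181b-5p, miR-195a-5p and miR-29c-3p were higher and miR-150-3p, miR-139-5p and miR-7a-5p lower. With slide row as a block and replicate 3 left out, 13 of the 30 passed: miR-155-5p, miR-181a-5p, miR-181a-1-3p, miR-181b-5p, miR-125a-5p, miR-195a-5p and miR-29c-3p as higher, and miR-150-3p, miR-139-5p, miR-7a-5p, miR-27b-3p, miR-28a-5p and the 5p side of miR-532 as lower. The block thus ended the call for each other miRNA said below to have passed, and within slide row 1 alone 19 of the 30 passed.

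**Figure D2:**
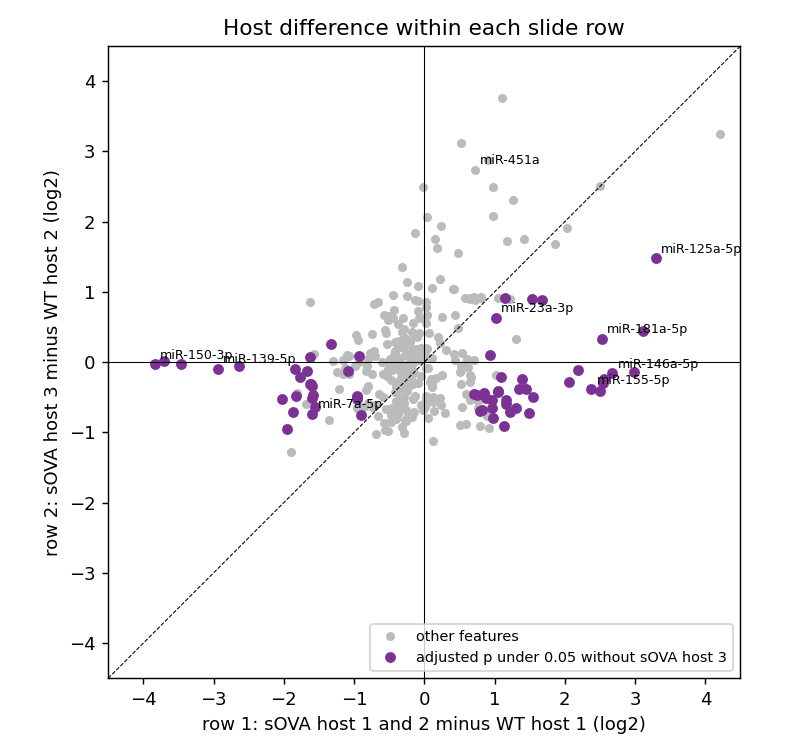
Difference between sOVA host and WT host arrays within slide row 1 (x axis, sOVA host replicates 1 and 2 against WT host replicate 1) and within slide row 2 (y axis, sOVA host replicate 3 against WT host replicate 2), in log2 units, 1 point per tested target. Purple points are the 65 targets that passed the test without replicate 3. They spread from -3.84 to 3.29 along x and from -0.95 to 1.48 along y, with miR-155-5p at 2.37 and -0.38 and miR-125a-5p at 3.29 and 1.48. That test used every host array of row 1 and not replicate 3. A wider spread of these points along x thus follows in part from their choice.

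Among miRNAs linked to T cell activation, miR-155-5p and both miR-146 miRNAs were higher on sOVA host replicates 1 and 2 than on any WT host array. miR-155-5p, encoded in Mir155hg on chromosome 16, stood at -0.77 and -0.57 in the WT host, at 1.39 and 1.81 on sOVA host replicates 1 and 2, and at -0.95 on replicate 3. Replicate 3 lay below both WT host arrays, so the groups overlapped. The difference was 1.42 ± 0.81 (SE, adjusted p = 0.574, limma) with all arrays and 2.27 ± 0.24 (adjusted p = 0.00909, limma), 4.83-fold, without replicate 3. On the naive arrays the level was -3.19 and -3.41, below every host array.

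miR-146a-5p, which targets Traf6 and Irak1, followed the same arrays. It stood at -0.88 and -0.22 in the WT host, at 1.70 and 1.89 on sOVA host replicates 1 and 2, and at -0.38 on replicate 3. Replicate 3 lay between the WT host arrays. The difference was 1.62 ± 0.75 (SE, adjusted p = 0.449, limma) with all arrays and 2.34 ± 0.40 (adjusted p = 0.0245, limma), 5.08-fold, without replicate 3. With slide row as a block as well, the adjusted p was 0.0541 (limma). Its family member miR-146b-5p, from a separate gene on chromosome 19, stood at -5.09 and -4.28 in the WT host and at -3.09, -2.98 and -4.56 on the 3 sOVA host arrays. It rose 3.14-fold without replicate 3 (adjusted p = 0.0317, limma) and had an adjusted p of 0.468 (limma) with it and of 0.0538 (limma) with the row block added.

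The 3 miRNAs above were the only ones of the activation list that passed without replicate 3. Of its 13 tested targets, 3 passed as higher and 0 as lower, beside 11.11% and 7.89% of all targets, and with all arrays 0 passed. The list's median difference was -0.18 with all arrays and -0.36 without replicate 3, beside -0.15 and -0.18 over all targets tested. miR-21a-5p, strongly induced in activated T cells, stood at 4.34 and 4.12 in the WT host and at 3.86, 3.87 and 3.36 in the sOVA host. All 3 sOVA host arrays were lower, with a difference of -0.53 ± 0.28 (SE), without passing (adjusted p = 0.542, limma), and without replicate 3 under quantile normalization the difference was 0.25, of the opposite sign. The naive arrays were at 1.01 and 0.72. miR-132-3p and miR-212-3p, which share 1 locus, had differences of -1.11 (adjusted p = 0.0698, limma) and -1.19 (adjusted p = 0.0581, limma) without replicate 3, and of -0.78 and -0.78 with all arrays (adjusted p = 0.556 and 0.657, limma).

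The miR-182, miR-96 and miR-183 cluster, which is induced on activation and targets Foxo1, was lower on all 3 sOVA host arrays without passing. miR-96-5p stood at -3.33 and -4.05 in the WT host and at -4.45, -4.92 and -4.88 in the sOVA host, a difference of -1.06 ± 0.38 (SE, adjusted p = 0.366, limma). miR-182-5p was at -3.92 and -4.65 in the WT host against -5.18, -4.98 and -4.83. miR-183-5p was at -5.40 and -5.73 against -6.54, -6.52 and -5.82, and was well above background on 1 of the 3 sOVA host arrays. The groups did not overlap for any of the 3, beside 17.8% of all targets that were lower without overlap. The median difference of -0.73, beside -0.15 over all targets, stayed below 0 under each of the 4 other scalings. Without replicate 3 none of the 3 passed either (adjusted p from 0.152 to 0.313, limma).

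**Figure D3:**
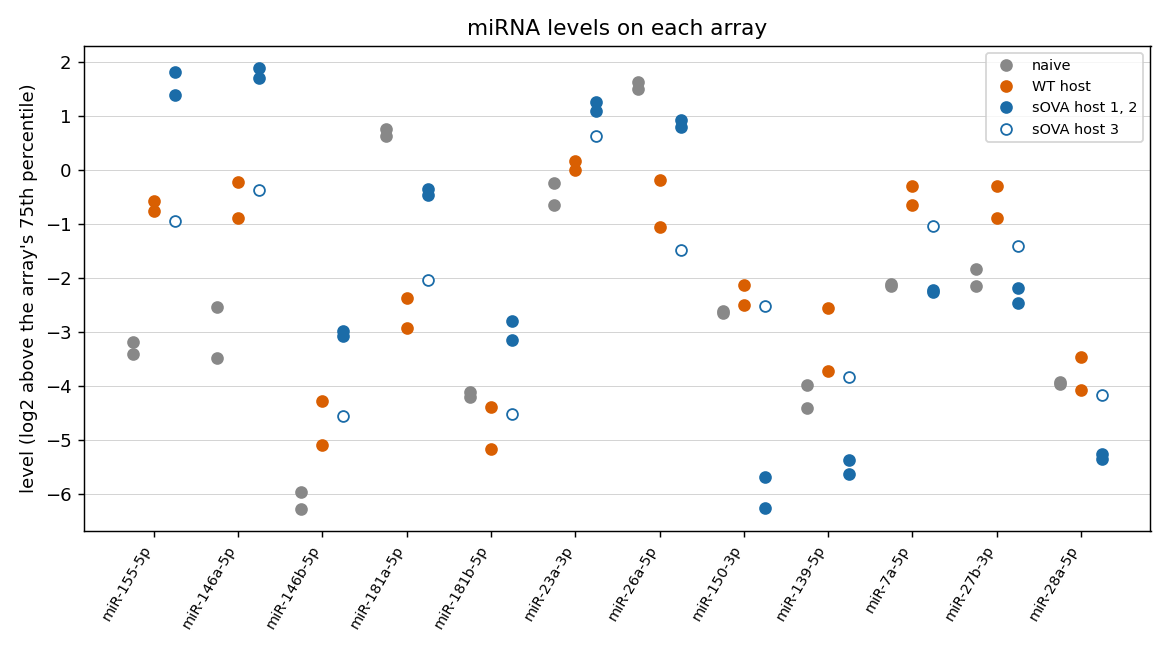
Level of 12 miRNAs on each array, in log2 units relative to the array's 75th percentile, with naive arrays in grey, WT host arrays in orange, sOVA host replicates 1 and 2 in filled blue and sOVA host replicate 3 as an open circle. For miR-155-5p, miR-146a-5p, miR-150-3p and miR-139-5p the open circle lies near the WT host arrays; for miR-181a-5p, miR-23a-3p, miR-7a-5p and miR-27b-3p it lies between them and the other sOVA host arrays.

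miRNAs that mark naive or resting T cells moved in both directions. Of 17 tested targets on that list, 5 passed as higher and 2 as lower without replicate 3 (11.11% and 7.89% of all targets), 0 passed with all arrays, and the median difference was 0.17 with all arrays and 0.45 without replicate 3. The 5 were miR-181a-5p, its partner strand miR-181a-1-3p, miR-181b-5p, miR-125a-5p and miR-26a-5p. The 2 were miR-150-3p and miR-139-5p.

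Mature miR-181a-5p and miR-181b-5p are each encoded by a locus on chromosome 1 (Mir181a-1 and Mir181b-1, chr1:137966468-137966673, plus strand) and a locus on chromosome 2 inside Nr6a1, which the array cannot tell apart, whereas miR-181a-1-3p comes from chromosome 1. All 3 passed as higher without replicate 3, beside 11.11% of all targets. miR-181a-5p stood at -2.94 and -2.38 in the WT host and at -0.47, -0.36 and -2.05 in the sOVA host. All 3 sOVA host arrays lay above both WT host arrays, replicate 3 by 0.33 over WT host replicate 2. The difference was 1.70 ± 0.56 (SE, adjusted p = 0.331, limma) with all arrays and 2.24 ± 0.25 (adjusted p = 0.00962, limma), 4.74-fold, without replicate 3. Both hosts lay below the naive arrays, which were at 0.75 and 0.62.

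miR-181b-5p, with the same seed, stood at -5.17 and -4.40 in the WT host and at -3.15, -2.79 and -4.52 in the sOVA host. Replicate 3 lay between the WT host arrays. Without it the difference was 1.81 ± 0.32 (SE, adjusted p = 0.0249, limma), and on the naive arrays the level was -4.21 and -4.11, below sOVA host replicates 1 and 2. miR-181a-1-3p was not well above background on either WT host array and was detected on 1 of 3 sOVA host arrays, so no fold is given. It stood at -8.89 and -7.92 in the WT host and at -6.12, -5.42 and -7.49 in the sOVA host, and its adjusted p was 0.023 (limma) without replicate 3. The family members encoded on chromosome 8, miR-181c-5p and miR-181d-5p, had differences of 0.52 (adjusted p = 0.125, limma) and 0.77 (adjusted p = 0.101, limma) without replicate 3, and of 0.14 and 0.53 with all arrays (adjusted p = 0.901 and 0.659, limma).

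miR-125a-5p, whose hairpin lies in Spaca6 on chromosome 17, had the smallest unadjusted p of all targets with every array in the fit (0.00105, limma, adjusted p = 0.331). It stood at -9.17 and -8.35 in the WT host and at -6.05, -5.70 and -6.88 in the sOVA host, and at -6.38 and -6.18 on the naive arrays. The groups did not overlap, but it was not well above background in the WT host and was so on 1 of 3 sOVA host arrays. No fold is therefore given. The adjusted p was 0.00962 (limma) without replicate 3. After normexp background correction without replicate 3 it did not pass.

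miR-26a-5p, abundant in resting lymphocytes, stood at -0.19 and -1.05 in the WT host and at 0.79, 0.92 and -1.48 in the sOVA host. Replicate 3 was the lowest of the 5. Without it the miRNA rose 2.78-fold (adjusted p = 0.0358, limma), and with it the adjusted p was 0.806 (limma). The naive arrays were higher still, at 1.63 and 1.49. miR-26b-5p, with the same seed, was lower on all 3 sOVA host arrays than in the WT host, without passing. Its difference was -0.64 (adjusted p = 0.41, limma) with all arrays and -0.55 (adjusted p = 0.155, limma) without replicate 3.

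miR-150-3p, the minor strand of a miRNA typical of mature resting lymphocytes, had the largest difference among named miRNAs when replicate 3 was left out. It stood at -2.14 and -2.50 in the WT host, at -6.27 and -5.69 on sOVA host replicates 1 and 2, and at -2.53 on replicate 3. The groups did not overlap, by 0.03 log2 units in the case of replicate 3. The difference was -2.51 ± 1.07 (SE, adjusted p = 0.428, limma) with all arrays. Without replicate 3 it was -3.66 ± 0.27 (adjusted p = 0.00543, limma), 12.6-fold lower in the sOVA host, with the signal well above background on 1 of the 2 remaining sOVA host arrays. The naive arrays, at -2.62 and -2.65, lay just below the WT host arrays.

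miR-139-5p, encoded within the phosphodiesterase gene Pde2a, showed a like pattern. It stood at -2.56 and -3.73 in the WT host and at -5.38, -5.63 and -3.83 in the sOVA host. Replicate 3 lay 0.10 below WT host replicate 2. The difference was -1.80 ± 0.64 (SE, adjusted p = 0.362, limma) with all arrays and -2.36 ± 0.43 (adjusted p = 0.0277, limma), 5.12-fold, without replicate 3. The naive arrays, at -3.99 and -4.42, lay below the WT host arrays and replicate 3 and above sOVA host replicates 1 and 2.

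Paralogous clusters encode miR-23, miR-24 and miR-27, and the miR-27 members of the 2 clusters differed in opposite directions. The Mir23a cluster on chromosome 8 (chr8:84208563-84208896) gave 4 tested targets, all higher in the sOVA host under each scaling, with and without replicate 3. Of them, 3 passed as higher without replicate 3, beside 11.11% of all targets. miR-23a-3p stood at 0.16 and -0.00 in the WT host and at 1.09, 1.26 and 0.63 in the sOVA host, with no overlap. Its difference was 0.91 ± 0.30 (SE, adjusted p = 0.331, limma) with all arrays and 1.10 ± 0.23 (adjusted p = 0.0322, limma), 2.14-fold, without replicate 3. It did not pass with slide row as a block as well (adjusted p = 0.0638, limma) or within slide row 1, nor did miR-27a-3p and miR-24-2-5p of the same cluster.

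miR-27a-3p stood at -0.66 and -0.96 in the WT host and at 0.43, 0.01 and -1.48 in the sOVA host, replicate 3 being the lowest. It rose 2.05-fold without replicate 3 (adjusted p = 0.0468, limma), and with all arrays the difference was 0.47 (adjusted p = 0.81, limma). miR-24-2-5p, the partner strand of miR-24-3p, rose 2.58-fold without replicate 3 (adjusted p = 0.0322, limma), where alone among the sOVA host arrays it was not well above background. With all arrays its difference was 0.64 (adjusted p = 0.806, limma). miR-24-3p, which both clusters encode, had a difference of 0.59 (adjusted p = 0.144, limma) without replicate 3 and of 0.35 (adjusted p = 0.806, limma) with it.

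From the Mir23b cluster on chromosome 13, inside Aopep, miR-27b-3p went the other way. It stood at -0.30 and -0.88 in the WT host and at -2.19, -2.46 and -1.41 in the sOVA host, all 3 below the WT host. The difference was -1.43 ± 0.40 (SE, adjusted p = 0.331, limma) with all arrays and -1.74 ± 0.28 (adjusted p = 0.023, limma), 3.33-fold lower, without replicate 3. The naive arrays were at -1.84 and -2.15. The probe for the 3p side of miR-23b had a difference of 0.41 ± 0.26 (SE, adjusted p = 0.657, limma). miR-27a-3p and miR-27b-3p share the seed and, as the sequences above show, differ by 1 base. On sOVA host replicates 1 and 2 their probes nevertheless differed from the WT host in opposite directions, while on replicate 3 both were lower than in the WT host.

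Lower miRNAs included a cluster on the X chromosome. It lies inside Clcn5, a gene for a chloride transporter (chrX:7237695-7248497, minus strand), and gave 7 tested targets from 5 hairpins. All 7 had lower means in the sOVA host under each scaling, with and without replicate 3, and for 6 of them no sOVA host array reached a WT host array, beside 17.8% of all targets. The median difference was -1.18 with all arrays and -1.40 without replicate 3 (-0.15 and -0.18 over all targets), and 5 of the 7 passed without it, beside 7.89% of all targets. miR-362-5p stood at -3.69 and -4.55 in the WT host and at -5.57, -5.47 and -5.03 in the sOVA host, a difference of -1.24 ± 0.35 (SE, adjusted p = 0.331, limma) with all arrays. Without replicate 3 it fell by 1.40 on the log2 scale (adjusted p = 0.0393, limma).

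miR-188-5p stood at -5.06 and -5.46 in the WT host and at -6.58, -7.09 and -5.67 in the sOVA host, where it was well above background on no array. Set against the lowest signal well above background on the sOVA host arrays, it was at least 1.69-fold lower there, or at least 2.24-fold without replicate 3 (adjusted p = 0.0277, limma). miR-501-3p fell by 1.46 (adjusted p = 0.0322, limma), miR-532-3p by 1.13 (adjusted p = 0.0322, limma) and the 5p side of miR-532 by 1.43 (adjusted p = 0.0236, limma) on the log2 scale without replicate 3. With all arrays the differences were -1.09, -0.73 and -1.12 (adjusted p = 0.41, 0.615 and 0.331, limma). miR-501-3p was well above background on 1 and miR-532-3p on 2 of the 3 sOVA host arrays. The 2 members that did not pass were miR-500-3p, at -3.19 and -4.04 against -4.96, -4.78 and -4.63 (adjusted p = 0.0532 without replicate 3, limma), and miR-362-3p, at -3.18 and -4.34 against -4.95, -5.22 and -5.62 (adjusted p = 0.0909 without replicate 3, limma). With the 75th percentile over all probes and replicate 3 left out, none of the 5 members that had passed did so, nor did miR-23a-3p, miR-27a-3p, miR-24-2-5p, miR-27b-3p, miR-28a-5p, miR-148a-3p, miR-130b-3p or miR-26a-5p. miR-362-5p, miR-501-3p, miR-532-3p and miR-130b-3p also failed with the median over detected probes and with quantile normalization. The 5p side of miR-532 and miR-148a-3p also failed with that median, miR-26a-5p with quantile normalization and miR-24-2-5p with normexp.

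**Figure D4:**
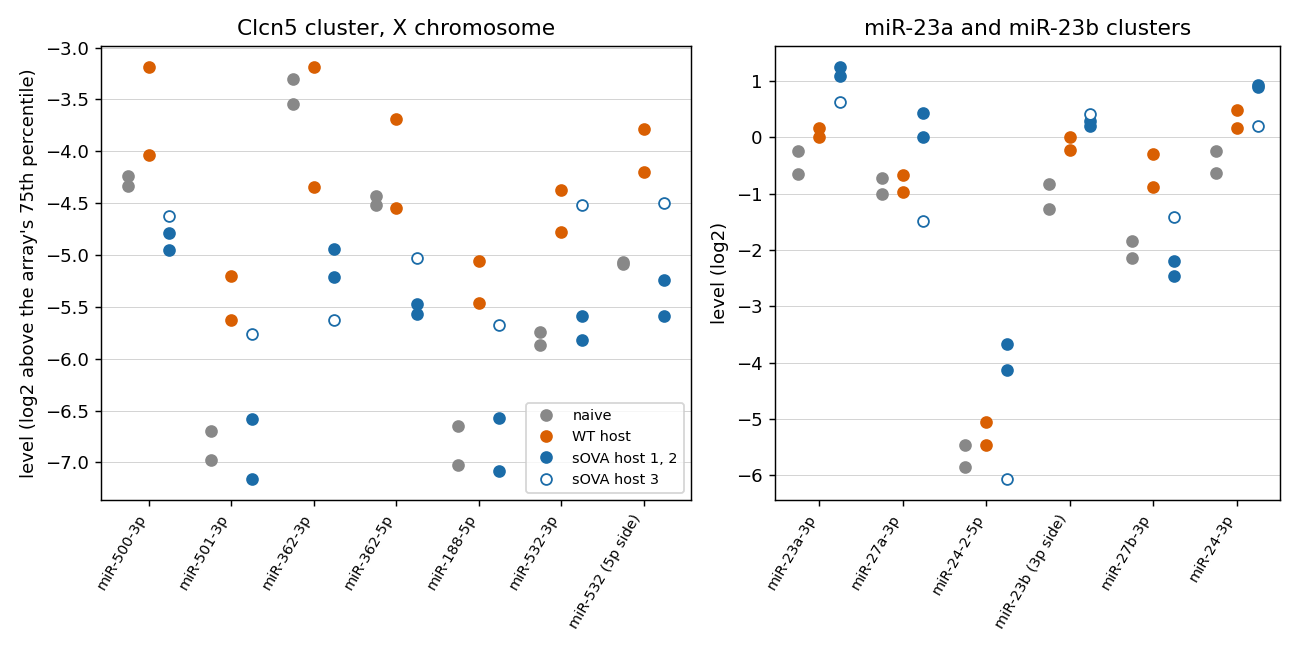
Levels of the 7 targets of the Clcn5 cluster (left) and of the miR-23a and miR-23b clusters (right) on each array, in log2 units relative to the array's 75th percentile, with the colours of groups given in the legend. All 3 sOVA host arrays lie below both WT host arrays for every Clcn5 target except miR-532-3p, and on the right miR-23a-3p lies above and miR-27b-3p below the WT host on all 3 sOVA host arrays.

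Single miRNAs also fell without replicate 3. miR-7a-5p, which acts on growth factor signalling, stood at -0.65 and -0.30 in the WT host and at -2.27, -2.23 and -1.04 in the sOVA host, with no overlap. Its difference was -1.37 ± 0.43 (SE, adjusted p = 0.331, limma) with all arrays and -1.77 ± 0.21 (adjusted p = 0.00962, limma), 3.41-fold lower, without replicate 3. On sOVA host replicates 1 and 2 it lay close to the naive arrays, at -2.11 and -2.15. miR-28a-5p, from an intron of Lpp, stood at -3.47 and -4.07 in the WT host and at -5.36, -5.26 and -4.18 in the sOVA host. It fell by 1.54 on the log2 scale without replicate 3 (adjusted p = 0.0231, limma), and with all arrays the adjusted p was 0.381 (limma).

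miR-148a-3p, which rises in repeatedly stimulated helper T cells, stood at -2.53 and -2.11 in the WT host and at -3.27, -3.64 and -2.03 in the sOVA host. Replicate 3 was the highest of the 5. Without it the miRNA fell by 1.14 on the log2 scale (adjusted p = 0.0357, limma), and with all arrays the difference was -0.66 (adjusted p = 0.708, limma). miR-33-3p, from an intron of Srebf2, the regulator of cholesterol synthesis, stood at -5.86 and -6.04 in the WT host and at -6.72, -6.80 and -6.79 in the sOVA host. Its 3 sOVA host arrays were close to each other, but only 1 of them was well above background. It fell by 0.81 on the log2 scale without replicate 3 (adjusted p = 0.0458, limma), passed under none of the 4 other scalings, and had an adjusted p of 0.331 (limma) with all arrays.

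The miR-130 and miR-301 family shares 1 seed, found in 4 of its 5 tested targets. Of these, miR-130b-3p, miR-301a-3p and the 3p side of miR-301b were lower on every sOVA host array than on both WT host arrays. Over all targets, 17.8% were lower without overlap. miR-130a-3p overlapped, with a difference of -0.23 with all arrays and 0.66 within slide row 2. miR-130b-3p stood at -1.88 and -1.79 in the WT host and at -2.90, -2.78 and -2.28 in the sOVA host, against -4.55 and -4.20 in naive cells. It fell by 1.01 on the log2 scale without replicate 3 (adjusted p = 0.0322, limma), with an adjusted p of 0.362 (limma) with all arrays. miR-301a-3p stood at -1.72 and -1.61 against -2.19, -2.97 and -2.25 and had a difference of -0.80 ± 0.32 (SE, adjusted p = 0.39, limma) with all arrays. Of the 5 targets, which include the partner strand miR-130b-5p with another seed, 1 passed without replicate 3, a share near the 19% of all targets. Their median difference was -0.69 with all arrays, beside -0.15 over all targets.

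miRNAs of the miR-17 to miR-92 cluster, which supports proliferation of T cells, gave no call. Its locus in Mir17hg on chromosome 14 gave 10 tested targets, of which 0 passed with or without replicate 3. All 10 means were lower in the sOVA host, for 6 the groups did not overlap (17.8% of all targets were lower without overlap), and the median difference was -0.49, beside -0.15 over all targets. Scaling to the median over detected probes or quantile normalization left 9 lower with all arrays, the exception being miR-92a-3p, and without replicate 3 the first of these scalings left 7 lower. miR-19a-3p stood at -0.54 and -0.16 in the WT host and at -0.92, -1.51 and -1.18 in the sOVA host (difference -0.86 ± 0.28, SE, adjusted p = 0.331, limma). miR-92a-3p stood at 0.21 and 0.47 against 0.11, 0.25 and 0.60, with an interval of the difference from -0.67 to 0.62.

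Higher miRNAs outside these families included miR-195a-5p, of the miR-15 and miR-16 seed family, which restrains the cell cycle. It was well above background on no WT host array and on 2 of 3 sOVA host arrays, with levels of -4.92 and -4.48 on sOVA host replicates 1 and 2. It was at least 3.89-fold higher without replicate 3 (adjusted p = 0.00785, limma) and had an adjusted p of 0.583 (limma) with it. The abundant family member miR-16-5p stood at 2.45 and 2.28 in the WT host and at 3.02, 3.07 and 1.82 in the sOVA host. Its difference was 0.68 (adjusted p = 0.063, limma) without replicate 3, and with all arrays 0.27, or -0.03 when scaled to the 75th percentile over all probes.

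miR-29c-3p, of a family that limits interferon gamma and Tbx21, stood at -3.94 and -4.97 in the WT host and at -2.21, -2.57 and -5.47 in the sOVA host, and was not well above background on replicate 3. It rose 4.18-fold without replicate 3 (adjusted p = 0.0322, limma) and lay there near the naive arrays, at -2.04 and -2.62. With all arrays its difference was 1.04 ± 1.00 (SE, adjusted p = 0.806, limma). Of the 4 tested miR-29 targets it was the only 1 that passed without replicate 3. miR-29a-3p and miR-29b-3p had differences there of 0.56 (adjusted p = 0.307, limma) and 0.58 (adjusted p = 0.59, limma). For miR-29b-1-5p the difference was -0.18 (adjusted p = 0.759, limma). miR-331-3p stood at -4.88 and -4.76 in the WT host and at -4.00, -3.89 and -4.65 in the sOVA host. It rose 1.83-fold without replicate 3 (adjusted p = 0.0322, limma), passed under none of the 4 other scalings, and had a difference of 0.64 (adjusted p = 0.468, limma) with all arrays.

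The 3 other named miRNAs that passed as higher without replicate 3 were miR-466j, miR-467h and miR-340-5p. miR-467h and miR-340-5p were well above background on no host array, so no fold is given. They entered the test only because both naive arrays detected them, as did all 17 tested targets that no host array detected. Their differences thus compare signals below background, and neither passed after normexp background correction without replicate 3. miR-466j stood at -5.28 and -5.62 in the WT host and at -4.02, -4.62 and -6.27 in the sOVA host (adjusted p = 0.0458 without and 0.826 with replicate 3, limma). It belongs to a large set of near-identical miRNAs with many copies, so its signal cannot be assigned to 1 copy.

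Of 11 tested targets on the list for regulatory T cells and tolerance, which overlaps the lists above, 4 passed as higher without replicate 3 (miR-155-5p, miR-146a-5p, miR-27a-3p and miR-24-2-5p) and 2 as lower (miR-27b-3p and miR-148a-3p), beside 11.11% and 7.89% of all targets. With all arrays 0 passed, and the median difference was 0.09. Of the 9 let-7 targets and the 12 targets of miRNAs expressed across blood cells, 0 passed with or without replicate 3.

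Some abundant miRNAs had narrow intervals. The 95% interval of the difference lay within 1 log2 unit of 0 for 65 targets (19%), of which 49 were detected on all 5 host arrays. let-7d-5p stood at 1.08 and 0.81 in the WT host and at 0.59, 0.94 and 0.44 in the sOVA host, with an interval from -0.94 to 0.37. miR-342-3p, a miRNA of resting lymphocytes, had a wider interval, from -1.04 to 0.96, with 1.05 and 0.10 in the WT host against 0.68, 0.92 and 0.00.

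**Figure D5:**
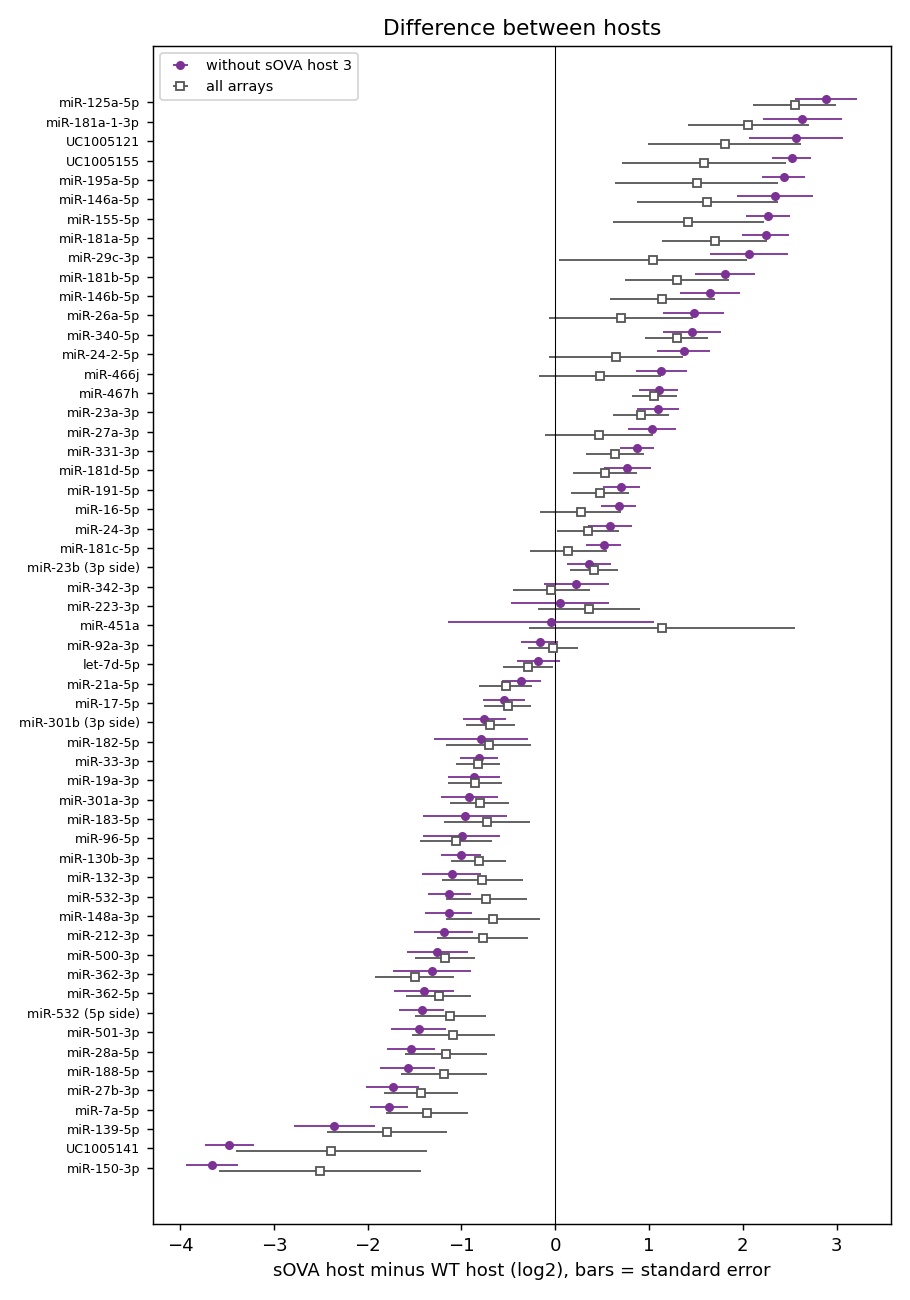
Difference between sOVA host and WT host (x axis, log2, positive where the sOVA host is higher) for 56 targets, with all arrays (open squares) and without sOVA host replicate 3 (filled circles); bars are 1 standard error from limma. Without the array the differences at both ends are larger, as for miR-155-5p (1.42 ± 0.81 against 2.27 ± 0.24) and miR-150-3p (-2.51 ± 1.07 against -3.66 ± 0.27). Named targets that passed without the array were added for that reason. Larger differences and smaller errors without it thus follow in part from the choice of targets. miR-340-5p and miR-467h lie below background on all host arrays, and for targets below background in 1 group the measured levels are plotted, not the bounds.

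In the authors' deposited value table, the sOVA host replicate 3 column resembles replicates 1 and 2 (r = 0.991 and 0.990). Those resemble each other less (r = 0.970). Whether the replicate 3 column is a measurement independent of them was not tested. With all samples, 126 of 1776 rows of the value table passed (7.09%, limma fitted to that table), 83 higher (4.67%) and 43 lower (2.42%) in the sOVA host. Leaving out the replicate 3 column left 31, 24 of them higher. Rows of the value table could not be joined to these miRNAs, since 4 of its identifiers match a probe of the scanner files. The only one of them detected on all 5 host arrays was UC1006152. It stood in the table at 8.24 and 8.21 in the WT host and at 8.84, 8.61 and 8.52 in the sOVA host.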

How the data were processed

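Cy3-labelled total RNA (250 ng per the labels) was hybridised to custom Agilent arrays, and 5 host and 2 naive arrays were used. Per the file headers, the deposited scanner files give a linear intensity for each spot, from which Feature Extraction had subtracted background, with no normalization across arrays. The version is 10.6 per the submitters' processing notes and 9.5.1.1 per the file headers. The authors' deposited value table holds log2 values with near-equal medians (5.69 to 5.70). How background and spots were treated there is not given in the sources used here, and its scale was taken as log2 from its range.

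Outlier-flagged and control spots were left out, spots were averaged as log2 per probe, and arrays were scaled to the 75th percentile over probes detected on all arrays. Probe targets (the reverse complement without the 10 added T and a leading G) were matched to RefSeq miRNAs, and targets with the same start were merged. limma 3.58.1 in R 4.3.3 was fitted to all 7 arrays, with Benjamini-Hochberg adjustment over 342 targets and a threshold of 0.05. The fit was tested on simulated data with equal independent noise on every array. Those data held no outlying array, slide row effect or floor, so they cannot show how the fit behaves with replicate 3. Replicate numbers were not used to pair the arrays in this fit. Alternatives covered scaling, background, filters, slide row, replicate block, array weights and each array left out.

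The members, lists and the rule for named targets were chosen with earlier results of these data known. The rule took targets that passed (up to 15 per direction), the 10 smallest p-values, the 10 largest non-overlapping differences per direction among detected targets, up to 4 bright members per list, 12 set miRNAs, the 5 brightest targets, and the 5 brightest with narrow intervals. The text prints part of these. Since none passed with all arrays, the named targets that passed without replicate 3 were added after their values were seen, as were family and cluster members. Some targets have no entry in the miRNA table and are not reported here by name.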

Additional observations from a re-analysis of the deposited data

How the results depend on the processing

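With all arrays, 0 targets passed under the other scalings, filters, detection rules, eBayes options, slide row as a block, the fit of host arrays alone, and leaving out any array other than sOVA host replicate 3. Leaving out single arrays gave 0 to 65 passing targets (0 to 38 higher, 0 to 27 lower), all of them from leaving out sOVA host replicate 3. Counts also moved with array weights (47, with 20 higher and 27 lower), where that array had a weight of 0.119. They moved with the replicate block (27, with 18 higher and 9 lower), in which replicate 3 is the only array of its number. Deviations of same-numbered host arrays from their group means correlated at r = 0.35 and -0.60 for the 2 pairs of hosts. The deviations of the 2 WT host arrays are mirror images, so these values cannot show whether replicate numbers pair the arrays. They moved without both dim arrays (47, with 23 higher and 24 lower) and within slide row 1 (48, with 23 higher and 25 lower), where the lone WT host array is assumed to vary like the other groups. Without replicate 3 and with slide row as a block, 27 passed (16 higher, 11 lower), of which 26 were among the 65. The authors' value table gave 126 (83 higher, 43 lower). Alternatives chosen after seeing the data, all without replicate 3, gave 45 for targets detected on the other 4 host arrays (29 higher, 16 lower), 25 for the 75th percentile over all probes (17 and 8), 51 for the median over detected probes (40 and 11), 47 for quantile normalization (31 and 16), 55 for normexp (26 and 29) and 31 for the value table (24 and 7). The scaling moved the median difference over all targets from -0.45 (75th percentile over all probes) to 0.03 (median over detected probes), beside -0.15 in the report.

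Within slide row 2, a single pair of arrays with no test, 19 of the 56 targets followed had the sign opposite to that with all arrays, 12 of them among the 30 named miRNAs that passed without replicate 3 (miR-155-5p at -0.38, miR-146a-5p at -0.16, miR-195a-5p at -0.41 and miR-532-3p at 0.26 among them). Over the 29 fitted settings, which leave out that pair, 47 of the 56 never changed sign. The rest changed sign as follows, none with an adjusted p under 0.05 in limma, and the cause was not tested. miR-92a-3p was 0.15 with the detected-probe median, 0.016 with quantile normalization, 0.017 with the row block, 0.080, 0.014 and 0.11 without sOVA host replicates 1 and 2 and WT host replicate 2, and 0.11 without replicate 3 on the detected-probe median. miR-342-3p was 0.13 with the detected-probe median, 0.23 with the replicate block, without replicate 3 and with that array's filter, 0.19 with array weights, 0.43 without WT host replicate 1, and 0.31, 0.50, 0.12 and 0.22 without replicate 3 under the 4 other scalings. miR-223-3p was -0.015 without WT host replicate 2, -0.32 without both dim arrays and within row 1, -0.076 without replicate 3 with the row block and -0.24 with normexp. miR-451a was -0.043 with the replicate block, without replicate 3 and with that array's filter, and -0.013 and -0.032 without it under quantile normalization and normexp. miR-16-5p was -0.033 and miR-181c-5p -0.16 with the 75th percentile over all probes, and miR-181c-5p was -0.093 and -0.0056 without sOVA host replicates 1 and 2. Without replicate 3, miR-21a-5p was 0.25 under quantile normalization, let-7d-5p 0.095 on the detected-probe median and miR-467h -0.077 after normexp. Over all single arrays left out, the differences ranged from -0.52 to 0.43 for miR-342-3p, from -0.015 to 0.86 for miR-223-3p, from -0.043 to 2.49 for miR-451a and from -0.093 to 0.52 for miR-181c-5p. Signal over background is the limit here: a target below background on a whole group has a bound or no fold, and one detected on part of a group is given its measured value.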

Other observations

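The 3 targets given here lie within 2 edits of a named miRNA, may share its signal, and had like values. Not all close targets did: miR-27a-3p and miR-27b-3p, 1 base apart, differed from the WT host in opposite directions on sOVA host replicates 1 and 2. UC1005155, 1 edit from miR-155-5p, stood at -2.41 and -2.37 in the WT host and at -0.04, 0.30 and -2.68 in the sOVA host, a difference of 2.52 ± 0.21 without replicate 3 (SE, adjusted p = 0.00584, limma). UC1005121, 2 edits from miR-146a-5p, stood at -5.70 and -4.87 in the WT host and at -2.75, -2.69 and -5.01 in the sOVA host. UC1005141, 1 edit from miR-150-3p, stood at -2.24 and -2.70 in the WT host and at -6.16, -5.73 and -2.68 in the sOVA host, and was detected on 2 of 3 sOVA host arrays. These 3 targets were chosen after their values were seen.

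Of the 342 targets, 25 were over 1 log2 unit higher on sOVA host replicate 3 than on each of the other 4 host arrays, and 1 was over 1 log2 unit lower. miR-451a was the erythroid marker among the 25.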
